A study of Mus musculus with 3 samples.

Results

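Erythroid-primed cells among Lin-Sca1+ckit+ (LSK) bone marrow cells, the mouse fraction that holds blood stem cells and multipotent progenitors, were described in Helios-deficient mice (2) and wild-type mice (2). Helios is the zinc-finger protein of the Ikaros family that is encoded by Ikzf2. The LSK cells of each mouse had been marked with its own hashtag antibody against CD45 and MHC class I, 2500 cells per mouse had been pooled and run together on a 10x Chromium 3′ chip, and antibodies with DNA tags against CD41, CD48, CD150 and CD135 had been added. The RNA, surface tag and hashtag libraries come from the same droplets, and all 3470 cells that the authors kept carry both RNA and tag UMIs (unique molecular identifiers, each counting 1 captured molecule). The age, sex and strain of the mice and the design of the Helios deletion are not given in the sources used here. All 4 mice shared 1 droplet run, with 5729987 to 10317599 RNA UMIs per mouse in kept cells. Nothing in the labels tells how the mice of a genotype relate, so the tests measure the spread between these 4 animals. Beyond the genes of the choice, the members carried Gata1, Blvrb and heme synthesis RNA, but RNA of the sorting antigen Sca-1 was low.

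The members were chosen by measured RNA. In each kept cell the UMIs of 7 genes (Car1, Klf1, Aqp1, Epor, Ermap, Rhd and Tspo2) were summed and expressed per 10000 UMIs of that cell, and the 50 cells with the highest value were taken out of 3470. The highest score was 93.7 and the median of the members 27.5. The last members scored 5.59 and 5.27, and the first cells outside scored 5.20 and 4.69, so the edge cuts through a continuous range. Among the other 3420 cells 12.5% had a score above 0. Car1 gave 72.1% of the members' UMIs in the 7 genes. All 7 genes were detected in 11 members and at least 4 of them in 30, while 7 members had fewer than 5 such UMIs. The member at rank 37 rests on 1 Car1 UMI among 953.

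Commitment to the red cell line starts when a multipotent progenitor raises Gata1, the zinc-finger factor that, with Klf1, switches on most red cell genes, and lowers the related Gata2. The receptor for erythropoietin, encoded by Epor, carries the survival signal of these cells, the enzymes of heme synthesis come next, and globins and the membrane skeleton come late. Carbonic anhydrase 1, encoded by Car1, and the water channel Aqp1 appear early on this path. Ermap and Rhd encode blood group membrane proteins, and Tspo2 an erythroid relative of the mitochondrial translocator protein.

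The stretches from 250 bases before to 50 bases after the RefSeq start (GRCm38.p6) of 3 of the 7 genes are shown. They are the erythroid factor gene itself and the 2 genes whose window holds AGATAA, a form of the GATA factor motif. All 3 hold CACCC, the core letters that Klf1 recognises. Capitals mark AGATAA or CACCC on either strand. The window of Klf1 is chr8:84901732-84902031 (+), that of Epor chr9:21963527-21963826 (-), and that of Rhd chr4:134864286-134864585 (+).
Klf1: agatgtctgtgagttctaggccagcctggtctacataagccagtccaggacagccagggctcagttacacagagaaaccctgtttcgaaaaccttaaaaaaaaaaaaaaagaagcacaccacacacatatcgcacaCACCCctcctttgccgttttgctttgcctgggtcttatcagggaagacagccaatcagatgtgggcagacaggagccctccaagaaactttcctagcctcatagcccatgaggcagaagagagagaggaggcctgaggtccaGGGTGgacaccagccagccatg
Epor: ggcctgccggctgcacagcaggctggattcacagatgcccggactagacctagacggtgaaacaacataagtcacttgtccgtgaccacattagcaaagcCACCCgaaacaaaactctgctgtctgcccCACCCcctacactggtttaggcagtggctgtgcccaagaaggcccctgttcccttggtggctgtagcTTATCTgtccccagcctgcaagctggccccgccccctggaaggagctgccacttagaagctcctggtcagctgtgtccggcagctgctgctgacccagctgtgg
Rhd: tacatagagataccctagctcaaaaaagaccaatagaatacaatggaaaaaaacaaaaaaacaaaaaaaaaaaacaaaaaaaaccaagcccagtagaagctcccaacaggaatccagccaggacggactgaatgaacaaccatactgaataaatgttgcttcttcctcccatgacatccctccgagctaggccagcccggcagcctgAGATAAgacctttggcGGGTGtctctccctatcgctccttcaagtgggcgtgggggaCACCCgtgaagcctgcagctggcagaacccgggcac
The letters CACCC were found in the windows of 6 of the 6 genes that have one (none is listed for Car1), and AGATAA in 2 of 6. Of all 27025 genes with a window, 56.7% held CACCC and 11.4% held AGATAA on either strand, and of the genes measured here 61.4% and 6.12%. Among genes higher in the members, the 7 left out, 69.2% held CACCC and 8.55% held AGATAA, against 69.8% and 8.29% of the genes lower in them. A match is a letter string only. Other forms of the GATA factor motif, such as TGATAA, were not counted. The windows of Klf1 and Ermap hold TGATAA on the other strand, left in lower case in the Klf1 window above. A window without AGATAA is therefore not read as lacking a GATA motif.

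The members made up 1.44% (exact 95% binomial interval 0.622 to 2.81) of the 557 kept cells of Helios-deficient mouse 1 and 2.06% (1.21 to 3.28) of the 824 of Helios-deficient mouse 2. They made up 0.766% (0.351 to 1.45) of the 1175 kept cells of wild-type mouse 1 and 1.75% (1.004 to 2.83) of the 914 of wild-type mouse 2. In cells these shares are 8 and 17 members of Helios-deficient mice, against 9 and 16 of wild-type mice. The genotypes overlapped, with wild-type mouse 1 lowest. The mean share was 1.75% ± 0.44 in Helios-deficient mice and 1.26% ± 0.70 in wild-type mice (SD, n = 2 each), a difference of 0.49 percentage points (two-sided exact permutation test, p = 0.667; 2 mice against 2 cannot go below 0.333). Without wild-type mouse 1 the difference was −0.00086.

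A group of 17 members carried 19645 to 32492 UMIs and the other 33 carried 953 to 15171, a gap that was chosen after the values were seen. The 17 larger cells were 34% of the members, and 4.04% of the other kept cells lay above the gap. The 17 came as 4 and 6 from the Helios-deficient mice and 2 and 5 from the wild-type mice. Their median score was 51.8, against 15.9 in the members with fewer UMIs.

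**Figure D1:**
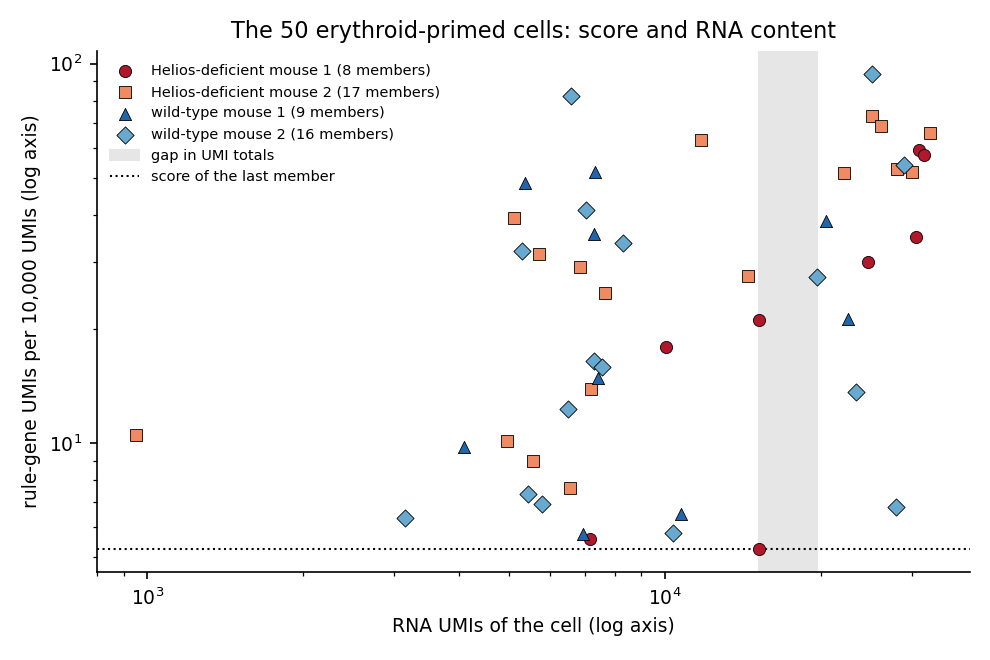
Each point is 1 of the 50 members, by its RNA UMIs (x, log axis) and its summed UMIs of the 7 genes per 10000 (y, log axis). Symbols give the mouse, the dotted line the score of the last member at 5.27, and the grey band the gap between 15171 and 19645 UMIs. Members of all 4 mice lie on both sides of the gap.

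Members resembled each other in genes that had not chosen them. In 30 principal components of 1500 variable genes, the 7 left out, the median member had 90% members among its 20 nearest cells, where members are 1.44% of all cells. All 17 members with more UMIs had at least 85%. Of the members at ranks 26 to 50, 14 of 25 had at least 50%, and 6 members had none. The 12 members with under 50% carried less Car1 (813 CPM, UMIs per 1000000 UMIs, pooled over cells) and no Mt2 UMIs, but more Gata2 (284 CPM) and Cd34 (94.6 CPM) than the others (3193, 317, 130 and 1.69 CPM). No cell at ranks 51 to 100 reached 50%, and 41 of these 50 had 0%. Of all 3420 other cells 2 reached 50%, 1 of them at ranks 101 to 200, and the highest value was 85%. These shares are descriptions, since they come from the RNA of the cells that were ranked.

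For each gene UMIs were summed over the members and over the other kept cells of each mouse, scaled to CPM, and compared as log2(CPM + 10), members minus others. A gene counted as higher or lower where the mean difference over 4 mice was at least 1 or at most −1 with that sign in each mouse. Of 8233 genes measured at 10 CPM or more in either class, 158 (1.92%) were higher and 692 (8.41%) lower. The median difference over these genes was −0.13. No test is given, because the 7 genes chose the cells by RNA.

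The 7 genes give the scale of the choice. Car1 stood at 2609 and 3800 CPM in members of Helios-deficient mice 1 and 2 and at 1779 and 2331 CPM in members of wild-type mice 1 and 2, against 2.70, 3.18, 2.93 and 3.31 CPM in the other cells of the same mice. Klf1 stood at 266, 324, 293 and 302.7 CPM in the members of the 4 mice in that order, and the other cells had at most 4.90 CPM. Klf1 was the most even of the 7 between mice and Rhd the most uneven, with 121, 216, 43.4 and 90.8 CPM. Mean differences ran from 2.40 for Epor to 7.61 for Car1. With every cell thinned to 4000 UMIs, 83.3% of 48 members held a Car1 UMI (interval 69.8 to 92.5), against 1.44% of other cells and 1.53% of cells with at least 2 UMIs of the lymphoid gene Dntt. Without thinning these shares were 88%, 2.75% and 2.90% at median depths of 7978, 7897.5 and 8782 UMIs. Whether free RNA in the droplets gave these low shares was not tested, and single Car1 UMIs outside the members are not read as expression.

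Among erythroid transcription factors, 3 of 17 measured were higher and 2 lower. Gata1 stood at 145 and 133 CPM in members of Helios-deficient mice and 184 and 156 CPM in wild-type members, against 12.04, 11, 8.22 and 14.5 CPM in other cells, a mean difference of 2.94. Gfi1b, a repressor needed for red cell and platelet formation, differed by 2.04 and the GATA1 cofactor gene Zfpm1 by 1.02. The genes Lmo2 and Lyl1, which encode partners in early blood cell complexes, were lower, with differences of −1.25 and −1.35. Gata2 (0.68), Tal1 (0.82) and Myb (0.62) did not reach the threshold.

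In the list of early erythroid genes 11 of 15 measured were higher and 0 lower. Both metallothionein genes were among them, at mean differences of 4.33 for Mt2 and 3.98 for Mt1. Mt2 stood at 418 and 224 CPM in Helios-deficient members and at 97.6 and 278 CPM in wild-type members, where no other-cell value passed 2.69 CPM. Blvrb, which encodes biliverdin reductase B, stood at 569, 736, 532 and 616 CPM in the members, against 44.7, 52.1, 43.3 and 46.2 CPM in other cells. Sphk1 (3.46), which encodes sphingosine kinase 1, and the sodium pump subunit gene Atp1b2 (3.38) were close to absent elsewhere. Over all genes outside the 7, the largest difference was in Gm15915 (4.48), followed by Mt2 and Mt1.

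Of 13 measured genes of heme synthesis 7 were higher and 0 lower. Cpox, which encodes coproporphyrinogen oxidase, stood at 170 and 220 CPM in Helios-deficient members and at 65.1 and 161 CPM in wild-type members, against 21.6 to 26.3 CPM in other cells. Alad (1.44), Urod (1.14) and Fech (1.07) were higher as well, so enzymes from the second step of the pathway to the last were included. The last step did not hold in the members with fewer UMIs. Pooled over mice, Fech was at 16.2 CPM in them, from 4 UMIs, against 22.8 CPM in other cells with fewer UMIs. Alad and Urod were at 141.9 and 113.5 CPM there, against 73.8 and 72.55 CPM. The erythroid first enzyme gene Alas2 had 0 UMIs in 696113 member UMIs, which allows up to 4.31 CPM (3 counts), and the housekeeping form Alas1 differed by −0.26. Of 10 measured iron genes 4 were higher, Tfrc, the transferrin receptor gene, by 1.20.

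Late red cell genes were sparse. Of 10 measured membrane genes 3 were higher, among them Icam4 (2.02) and Rhag (1.68), and Slc4a1, the anion exchanger gene, had 0 UMIs in members and in other cells. Of the globins 0 of 4 measured were higher. Hba-a1 stood at 12.1 and 166 CPM in Helios-deficient members and at 0 and 156 CPM in wild-type members, all 73 UMIs in members with more UMIs. It was found in 5 of 50 members, with 30, 14 and 26 UMIs in those at ranks 9, 10 and 12. Hbb-bt was lower (−2.27), at 0 and 12.5 CPM in members of Helios-deficient mice and 0 and 10.1 CPM in wild-type members, against 33.5 to 88.8 CPM in other cells. Of the genes for erythropoietin and STAT5 signalling 0 of 11 measured were higher, and the kinase gene Pim1 was lower (−2.01).

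Genes of most other fates were low. In the lymphoid list 10 of 11 measured were lower, in the granulocyte and monocyte list 8 of 11, in the stem cell list 13 of 17 and in the megakaryocyte list 5 of 14, the last with 1 higher. Their summed level in the members of a mouse was 36.3 to 75.7 CPM for the lymphoid list and 70.7 to 197 CPM for the granulocyte and monocyte list, against 1180 to 3433 and 1250 to 2044 CPM in other cells. For the stem cell list it was 920 to 1302 CPM, against 3465 to 4560 CPM. The megakaryocyte list overlapped, at 207 to 564 CPM in members and 523 to 764 CPM in other cells. Pooled over mice, it summed to 100 CPM in members with more UMIs, against 928 CPM in other cells with more UMIs. In members with fewer UMIs it was not low, at 734 CPM against 633 CPM.

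Cd34, a surface protein gene of stem and progenitor cells, had 0 and 16.6 CPM in members of Helios-deficient mice and 21.7 and 25.2 CPM in wild-type members, against 425, 424, 496 and 481 CPM in other cells (−4.32). Ly6a, the gene of the sorting antigen Sca-1, stood at 18.2, 16.6, 10.8 and 20.2 CPM in the members, against 161, 150, 156 and 131 CPM (−2.60). Kit, the gene of the other sorting antigen, differed by −0.44. Dntt (−4.37), the myeloid enzyme gene Mpo (−4.18) and the cytokine receptor gene Flt3 (−3.28) had 2, 8 and 5 UMIs in all members. The cytokine receptor genes Csf2rb and Csf3r had 0.

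Of marker lists of cells that a gate can let through, those of mature macrophages and of endothelium and stroma had low sums. The macrophage list summed to 0 to 16.6 CPM per mouse in members against 30.01 to 65.3 CPM in other cells, and endothelium and stroma to 12.1 to 29.1 against 58.7 to 71.2 CPM. The mature B, T and NK cell list summed to 177 to 250 CPM in members against 314 to 4436 CPM in other cells, with 9 of its 12 genes at 0 UMIs in members. The macrophage gene Cd68 was at 0 in members and at 13.04 CPM in other cells. Cd79a, Cd3e, Adgre1, Csf1r, Cdh5 and Kdr were at 0 too, but in other cells they were also under the 4.31 CPM that 0 member UMIs allow. Of the mast cell, basophil and eosinophil list, 9 of 15 were at 0 and Csrp3 was higher (2.66). Its sum was 72.6 to 328 CPM in members against 133 to 170 CPM. Pooled over mice, members with fewer UMIs summed to 373 CPM on it and 458 CPM on the mature B, T and NK cell list. Other cells with fewer UMIs had 149 and 331 CPM, so these lists were not low in those members. Members with more UMIs had 77.9 and 57.9 CPM, against 240 and 15690 CPM in other cells with more UMIs.

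**Figure D2:**
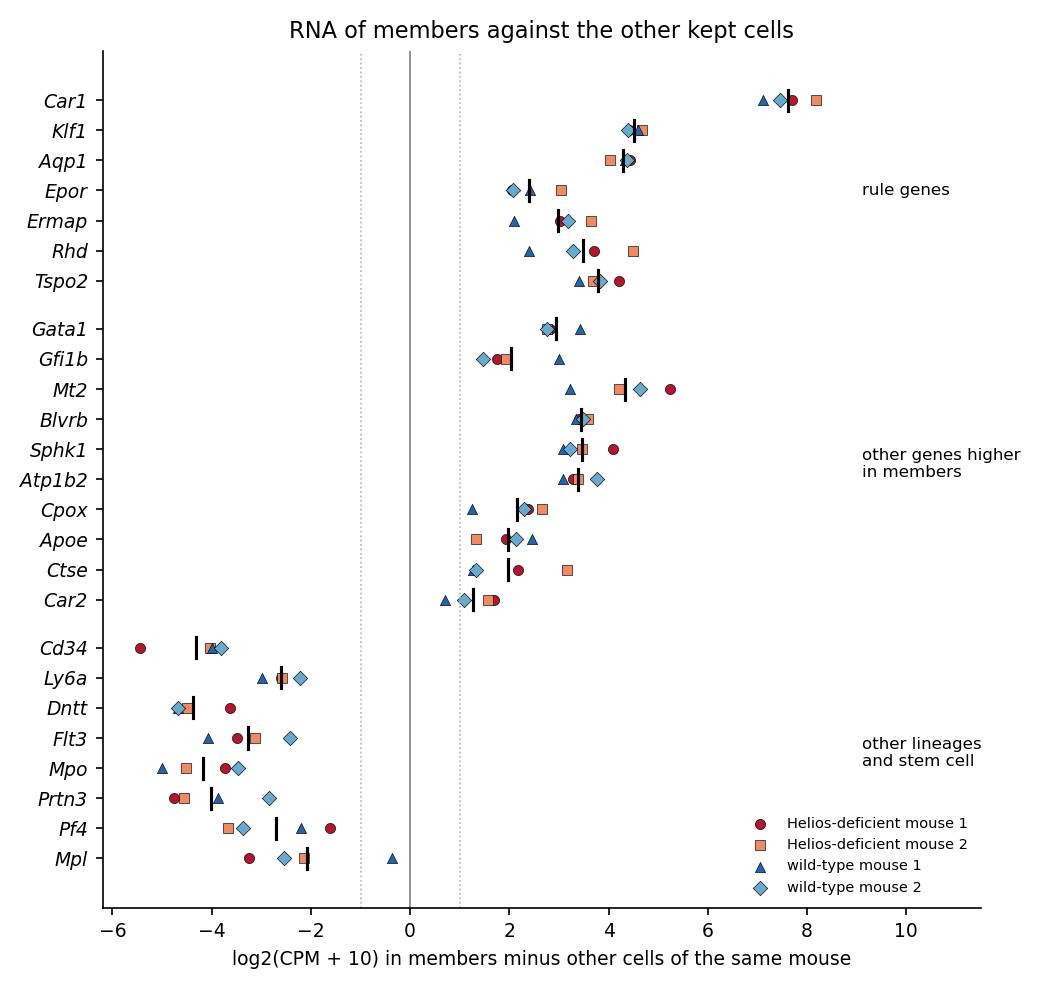
Differences in log2(CPM + 10), members minus other cells of the same mouse (x), for the 7 genes of the choice, 10 other genes higher in members and 8 genes of stem cells or other lineages. Each symbol is 1 mouse, bars are means over 4 mice, and dotted lines mark −1 and 1. The upper 2 blocks lie right of 0 and the lower block left of 0 in all 4 mice.

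Genes outside the choice differed in how they ran along the ranking. In pooled CPM at ranks 1 to 25, 26 to 50, 51 to 100, 101 to 200 and 201 to 3470, Gata1 ran 163, 124, 97.8, 69.1 and 8.125. It stayed above the last bin down to rank 200. Klf1, which ran 349, 213, 67.8, 32.2 and 1.495 CPM, helps set the rank, so its order is fixed by the choice. Mt2 stopped at the edge, with 380, 68.2, 3.99, 0 and 1.79 CPM. Pf4, the platelet factor 4 gene of megakaryocytes, ran 4.475, 44.2, 1325, 881 and 134 CPM, so it was highest just outside the members. Gata2 (107, 237, 246, 183 and 88.3 CPM) and Apoe (1260, 2500, 2165, 1327 and 387 CPM) were highest on both sides of the edge. Cd34 ran the other way, with 0, 44.2, 83.8, 280 and 473 CPM. The bins differ in RNA content, with a median of 20460 UMIs at ranks 1 to 25 and 6233 to 8466 in the rest.

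**Figure D3:**
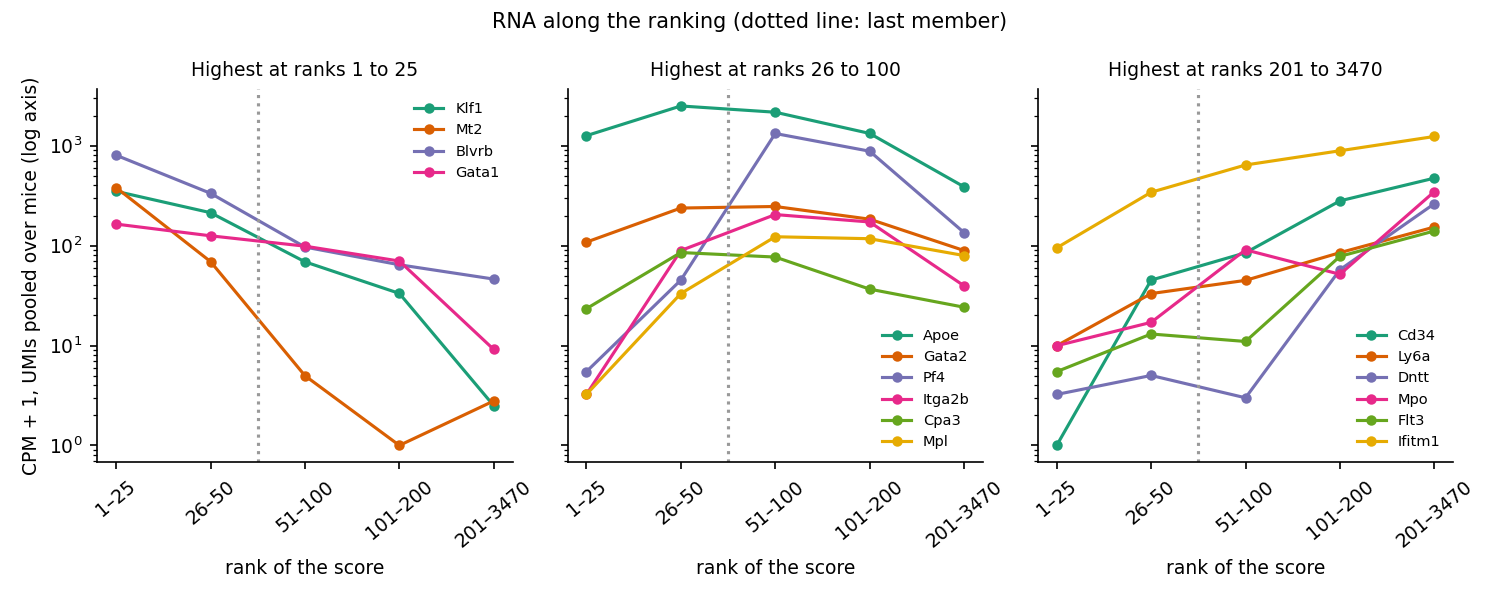
CPM + 1 of summed UMIs (y, log axis) in 5 bins of the score's rank (x), UMIs pooled over mice. The dotted line separates members from other cells. The left panel holds genes highest at ranks 1 to 25, of which Klf1 helps set the rank, the middle panel genes highest at ranks 26 to 100, where Pf4 reaches 1325 CPM just outside the members, and the right panel genes highest at ranks 201 to 3470.

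The members with more UMIs and those with fewer differed in their RNA. Of 4813 genes at 30 CPM or more in either, 280 (5.82%) were higher and 418 (8.68%) lower in the members with more UMIs by the same rule. This is a description, as the score and the split come from the same cells. Gata2 stood at 51.2 CPM in members with more UMIs and 340 CPM in those with fewer (mean difference −2.47), while Gata1 was 147 and 154 CPM (−0.03). Apoe, the apolipoprotein E gene, was at 830 against 3295 CPM (−2.10). Cpa3, a mast cell protease gene, had 0 UMIs in members with more UMIs and 31 in those with fewer.

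Some heme and S phase genes were higher in the members with more UMIs. Of 9 measured heme genes 5 met the rule, with Fech at 97.9 against 16.2 CPM. Of 24 measured S phase genes 8 met it, the licensing factor gene Cdt1 at 129 against 16.2 CPM, and of 23 G2 and M phase genes 0. Sphk1 stood at 169 against 8.11 CPM, and the asparagine synthetase gene Asns at 198 against 4.05 CPM. Of 11 stem cell genes 7 were lower and of 8 megakaryocyte genes 5. In the other kept cells the same split gave differences of −0.50 for Gata2, −0.20 for Apoe, 0.10 for Cdt1 and 0.29 for Gata1; the difference between the 2 splits was not tested.

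Barcodes that the authors left out extended this range. The kept cells end at 32870 UMIs, and 32 left-out barcodes of a single mouse had more. Of these, 19 (59.4%) scored at least as high as the last member, with scores of up to 119, against 1.44% of the kept cells. They came as 3 and 9 from the Helios-deficient mice and 4 and 3 from the wild-type mice. Summed over the 19, Car1 was at 4305 CPM, Klf1 at 410, Gata1 at 173, Gata2 at 30.4, Apoe at 240 and Cd34 at 10.9 CPM. Of 36 left-out single-mouse barcodes with neither a high UMI total nor a mitochondrial share of 5% or more, 0 reached the score, while 16 of those with a high mitochondrial share (5.26%) and 10 of 231 hashtag doublets (4.33%) did. Whether the 19 are single cells was not tested. With them the shares became 1.95% and 3.11% in Helios-deficient mice and 1.10% and 2.06% in wild-type mice, a mean difference of 0.949 percentage points (exact permutation test, two-sided p = 0.667).

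The surface tags were not used to choose the members. CD150, a SLAM family receptor of stem cells and early progenitors, averaged 6.51 and 6.59 log2(UMIs + 1) on members of Helios-deficient mice and 6.73 and 6.71 on those of wild-type mice. On other cells it averaged 6.33 and 6.37 in Helios-deficient mice and 6.34 and 6.33 in wild-type mice. Members were higher in 4 of 4 mice, by 0.29 ± 0.11 (SD, n = 4 mice). CD48, a marker of progenitors past the stem cell, was higher in 4 of 4 mice by 0.11 ± 0.05. Over the 4 mice the exact paired sign-flip permutation test gave two-sided p = 0.125 for each, the smallest it can give, and 0.25 after Benjamini-Hochberg adjustment over 4 tags.

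CD41, the integrin of megakaryocytes and early progenitors, differed by 0.03 ± 0.15 and was higher in 3 of 4 mice (exact p = 0.625, adjusted p = 0.833). CD135, the Flt3 receptor, differed by 0.00077 ± 0.069 (exact p = 0.875, adjusted p = 0.875). Against other cells of like UMI total CD150 was higher by 0.27, in the same direction, and CD48 by −0.08, in the opposite one. The members with more UMIs had a median of 79 CD150 UMIs, against 82 in other cells above the gap. For members with fewer UMIs it was 94, against 77 in other cells below the gap. Median CD48 UMIs were 124 against 267 above the gap and 122 against 108 below it. These medians pool the mice, and the difference between the depth groups was not tested. In RNA, Cd48 was lower in the members of each mouse (−1.46, with 54.5, 66.5, 65.1 and 60.5 CPM against 183 to 191 CPM). Slamf1, the CD150 gene, had 5 UMIs in all members. It was under the minimum of 10 CPM in members and in other cells, so it is not read as lower or higher.

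**Figure D4:**
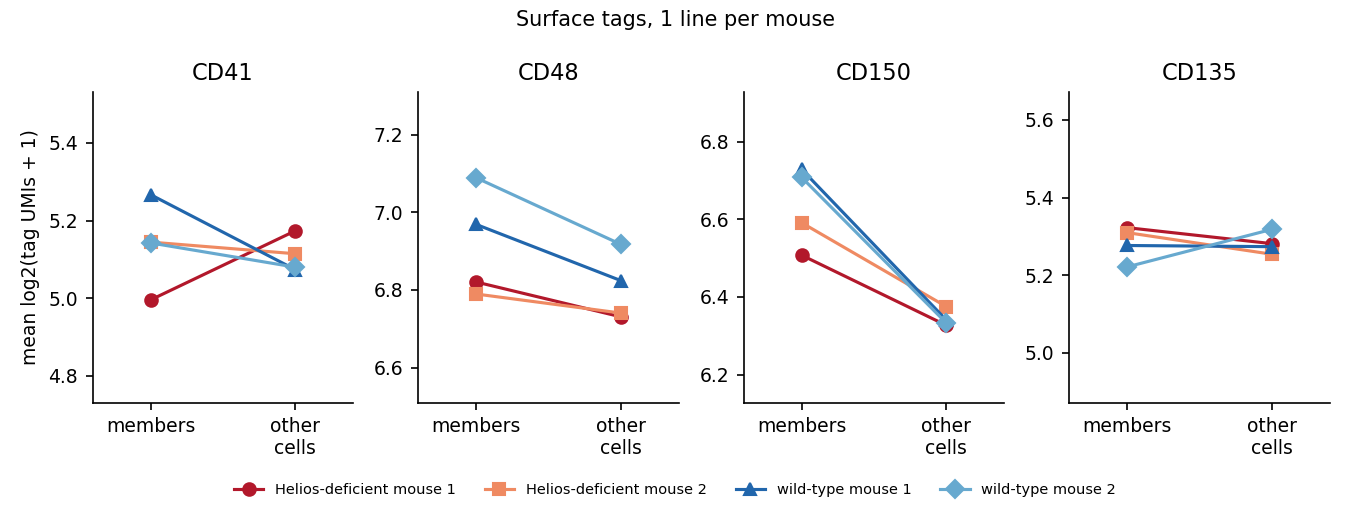
Mean log2(tag UMIs + 1) on members (left) and other kept cells (right) for 4 surface tags, 1 line per mouse, each panel spanning the same range on y. Members are the higher end of all 4 lines for CD48 and CD150 and of 3 of 4 for CD41 and CD135.

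Genotype was tested within the members on 4 sums of UMIs, 1 per mouse. The target gene Ikzf2 had 30.3 and 29.1 CPM in members of Helios-deficient mice and 32.5 and 60.5 CPM in wild-type members, with 27 UMIs in all, and it was too low to enter the test. In other cells it stood at 74.9 and 84.3 CPM in Helios-deficient mice and 70.9 and 67.8 CPM in wild-type mice. A 3′ tag outside the deleted part does not check a deletion, and where the deletion lies is not given in the sources used here.

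Among 2693 genes tested with edgeR's quasi-likelihood test, 5 passed an adjusted p of 0.05 (0.186%), 3 higher and 2 lower in Helios-deficient members. Genes of the choice that passed the count filter are among the 2693 (2687 without them), but no genotype test is read for any of the 7. Hmgb2, a chromatin protein gene of dividing cells, stood at 1943 and 1567 CPM in Helios-deficient members and 922 and 999 CPM in wild-type members, which is 0.83 in log2 (SE 0.14, adjusted p = 0.0071). Car2, the carbonic anhydrase 2 gene, stood at 3136 and 3521 CPM in Helios-deficient members and 1844 and 2487 CPM in wild-type members (0.57, SE 0.11, adjusted p = 0.0335). Top2a, the DNA topoisomerase of late cell cycle, stood at 309 and 249 CPM against 32.5 and 111 CPM (1.68, SE 0.34, adjusted p = 0.0335).

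The genes that fell were Actb, the beta-actin gene (−0.80, SE 0.15), and Plac8 (−0.58, SE 0.12), each at adjusted p = 0.0335. For Actb the Helios-deficient members had 1350 and 1152 CPM and the wild-type members 2549 and 1837 CPM. The calls rest on few animals. Without wild-type mouse 2 the count was 0, without wild-type mouse 1 3, and without Helios-deficient mouse 1 or 2 it was 9 or 23. DESeq2 and the fit without the robust option also gave 0, with 27 and 185 genes at an unadjusted p under 0.05 (198 with edgeR as reported).

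All 16 tested genes of the G2 and M phase had higher values in Helios-deficient members, and 1 passed the test. Summed over all 25 genes of the list, their level was 3905 and 2989 CPM in Helios-deficient members and 683 and 2270 CPM in wild-type members. The median per cell was 2634 and 783 CPM in Helios-deficient members and 577 and 777 CPM in wild-type members. By that median Helios-deficient mouse 2 and wild-type mouse 2 were close. The sums that follow are again over all UMIs of a mouse. In other cells it was 1952 and 2119 CPM in Helios-deficient mice and 1670 and 1815 CPM in wild-type mice. Of the 16 genes tested 1 (Top2a) passed, all 16 had a positive log2 fold change with a median of 1.07, and 11 had both Helios-deficient mice above both wild-type mice. Over all tested genes the median was −0.0063 and that separation was found in 19.4%. In the other cells all 16 were also on the higher side, with a median difference in log2(CPM + 10) of 0.21. Without wild-type mouse 1 the median of the 16 genes, as a difference in log2(CPM + 10), was 0.64, against 1.59 with all mice.

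Car2 was at 4012 and 4566 CPM in Helios-deficient members with more UMIs against 2488 and 3402 CPM in wild-type ones, and at 968 and 1290 against 1281 and 928 CPM in members with fewer UMIs, where the genotypes overlapped. Top2a stood at 195 and 244 CPM in Helios-deficient members with more UMIs against 46.5 and 168 CPM in wild-type ones. In members with fewer UMIs Top2a was at 589 and 261 CPM in Helios-deficient mice, from 28 and 20 UMIs in 2 and 3 cells. In wild-type mice it was at 20.3 and 13.6 CPM there, from 1 UMI in each mouse. Top2a in members with fewer UMIs thus rests on few cells. In the 19 left-out barcodes it was 361 and 235 CPM in Helios-deficient mice and 273 and 271 CPM in wild-type mice, and the G2 and M phase list summed to 4113 and 4972 CPM against 3465 and 5450 CPM. In those barcodes the genotypes overlapped.

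S phase genes had a median log2 fold change of −0.21 over 21 tested, 0 passed and 7 with both Helios-deficient mice below both wild-type mice (17.9% of all genes). Of 15 erythroid transcription factors tested 0 passed, with a median of −0.39 and 8 with both Helios-deficient mice below both wild-type mice. Gata2 stood at 90.8 and 121 CPM in Helios-deficient members and 260 and 197 CPM in wild-type members (−1.05, SE 0.32, adjusted p = 0.386), and Gata1 at 145 and 133 against 184 and 156 CPM (−0.28, SE 0.32, adjusted p = 0.941). All 5 heme genes tested were on the higher side (median 0.57 in log2), and 0 passed. In 4 of them both Helios-deficient mice lay above both wild-type mice, a separation found in 19.4% of all tested genes. Members with more UMIs, in which Gata2 was low and heme genes were high, were 4 of 8 and 6 of 17 in Helios-deficient mice and 2 of 9 and 5 of 16 in wild-type mice, and their part in these values was not tested.

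The genotype effect differed between members and other cells for 9 of 10591 genes tested (0.085%; edgeR interaction with mouse as block, adjusted p under 0.05). The first was Ctse, which encodes the protease cathepsin E. In other cells Ctse stood at 7.01 and 9.29 CPM in Helios-deficient mice and 79.8 and 78.7 CPM in wild-type mice. In members it stood at 66.6 and 162 CPM in Helios-deficient mice and 206 and 212 CPM in wild-type mice. The log2 fold change, Helios-deficient over wild type, was higher in the members by 2.49 (SE 0.38, adjusted p = 4.9e-07).

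Within the members Ctse did not pass the edgeR genotype test (log2 fold change −0.81, SE 0.34, adjusted p = 0.644). Its difference between genotypes was large in 1 of the 2 depth groups of members. Members with fewer UMIs had 21.04 and 13.0 CPM in Helios-deficient mice, from 1 and 1 UMIs in 4 and 11 cells, against 244 and 164 CPM in wild-type mice, from 12 and 12 UMIs in 7 and 11 cells. Members with more UMIs had 85.0 and 232 CPM in Helios-deficient mice, found in 3 of 4 and 5 of 6 cells, against 163 and 240 CPM in wild-type mice. Of the 39 Ctse UMIs in members of Helios-deficient mouse 2, 15 and 17 lay in those at ranks 10 and 12. These cells also held 17 and 47 globin UMIs. The highest count in wild-type mouse 2 was 11 of 42, in the member at rank 9, which held 42 globin UMIs. The genotypes were apart in the members with fewer UMIs and overlapped in those with more, a difference that was not tested. Ctse was not among the interaction calls without the members with more UMIs, without those with 5 or more globin UMIs, or without Helios-deficient mouse 2. In the 19 left-out barcodes Ctse was at 133 and 150 CPM in Helios-deficient mice and 279 and 255 CPM in wild-type mice, with the genotypes apart.

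The other genes with a different genotype effect in members were higher for Ube2c, Top2a, Ccnb2 and Hmgb2, all active late in the cell cycle, and Car2, and lower for Serpina3g, Actb and Coro1a. Ube2c, a ubiquitin-conjugating enzyme gene of mitosis, had 369 and 204 CPM in Helios-deficient members and 0 and 65.6 CPM in wild-type members, against 108 and 111 CPM in other Helios-deficient cells and 80.5 and 98.3 CPM in other wild-type cells. Its interaction was 2.45 (SE 0.40, adjusted p = 6.7e-06). Without Helios-deficient mouse 1 Ube2c no longer passed. The interaction count was then 3, and without wild-type mouse 1 it was 2. Selp, the P-selectin gene, had 33.96 and 28.6 CPM in other Helios-deficient cells and 11.4 and 8.69 CPM in other wild-type cells and 0 UMIs in all members, and Flt3 had 0 and 1 UMIs in Helios-deficient members and 0 and 4 in wild-type members.

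**Figure D5:**
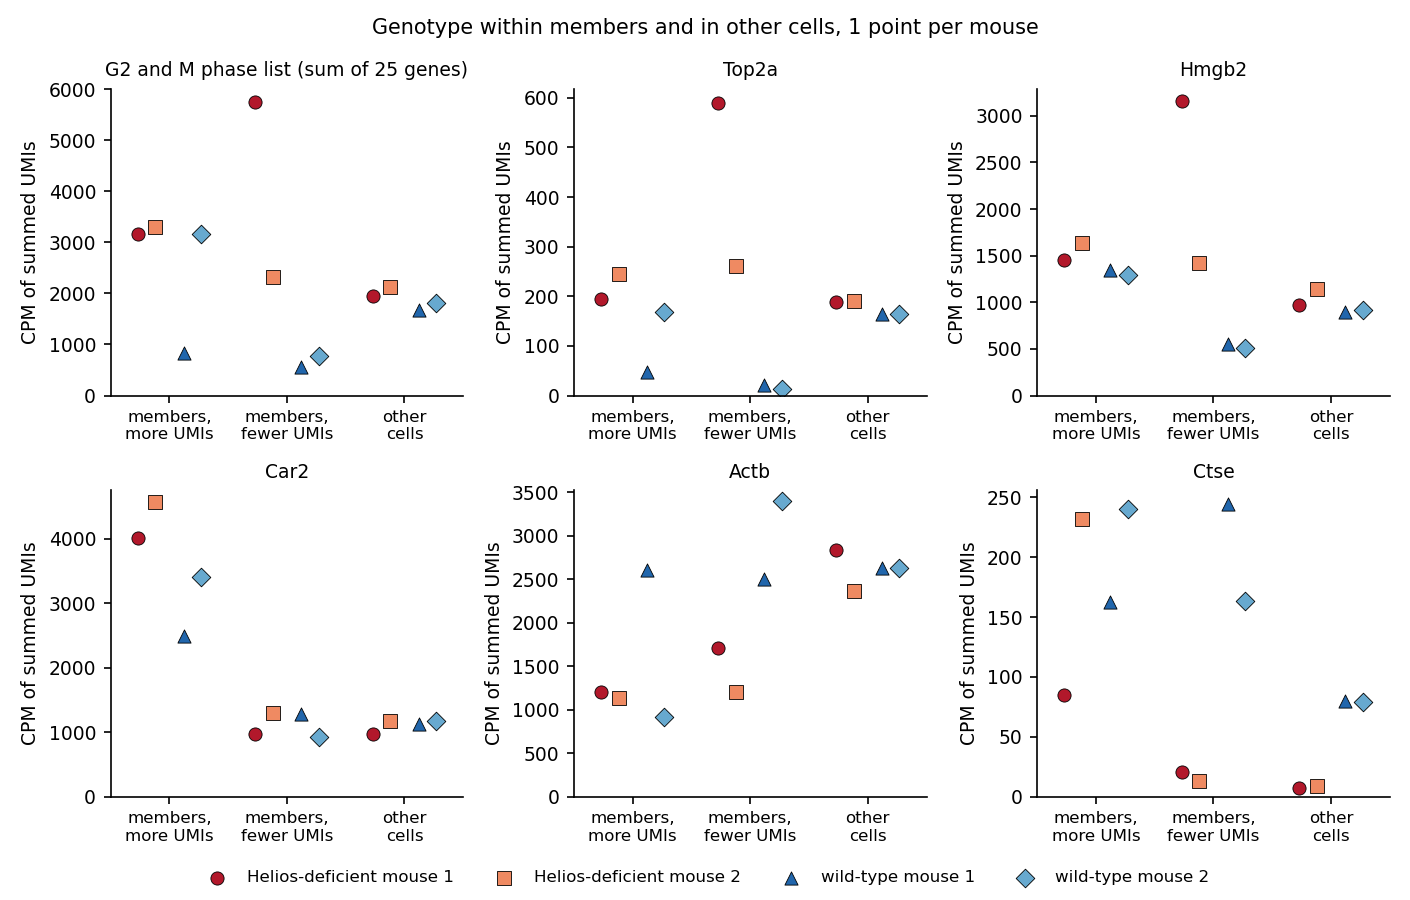
CPM of summed UMIs (y, from 0) for the G2 and M phase list and 5 genes in members with more UMIs, members with fewer UMIs and other cells, 1 point per mouse, Helios-deficient left of wild type in each class. In members with fewer UMIs Ctse is at 21.04 and 13.0 CPM in Helios-deficient mice and 244 and 164 CPM in wild-type mice, while in those with more UMIs the mice overlap.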

How the data were processed

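The deposited RNA counts are raw UMI counts per gene and droplet of 1 pooled 10x run, with tag and hashtag UMI counts for the same droplets and the authors' list of kept cells with their mouse, per the file headers. The submitters' processing notes name Cell Ranger, Seurat 3.0.0 and mm10, and the matrix header gives software version 3.0.2. The filter behind the kept list is not given in the sources used here. Hashtag doublets were left out by the authors, and no doublet caller was run.

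UMIs were summed per mouse and class (2 mice per genotype, 1 sum each). Genotype was tested with edgeR 4.0.16 in R 4.3.3 (TMM, filterByExpr, robust quasi-likelihood test, Benjamini-Hochberg adjustment over all genes tested), with DESeq2 1.42.0 as an alternative, and the fits were tested on simulated data. RNA of members against other cells got no test. Intervals are exact binomial (95%), and they and the limits for 0 (3 counts) cover counting error only. The members and gene lists were chosen with earlier results of these data known. Genes were named by rule: the 7 genes, up to 5 per list with the largest difference and defining genes at 0, the 15 largest differences each way, Ikzf2, Ctse, Selp and Flt3, and genes past 0.05 between genotypes. Other genes, among them those of the ranking, the depth groups and the interaction, were chosen after their values were seen. Alternatives included 25 or 100 members, a score without Car1, 4000 UMIs per cell, other filters and each mouse left out.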

Additional observations from a re-analysis of the deposited data

Results flagged for a closer look

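The genotype effect, Helios-deficient over wild type, differed between members and other cells by a test of that difference (edgeR interaction, adjusted p under 0.05) for 9 genes. In log2, members minus other cells, the difference was 2.49 for Ctse, 2.45 for Ube2c, 2.05 for Ccnb2, 1.54 for Top2a, 0.78 for Car2, 0.70 for Hmgb2, −0.69 for Actb, −1.57 for Coro1a and −2.26 for Serpina3g. Of 13 alternatives run, 12 called Ube2c, 10 Ctse, 10 Car2, 8 Top2a, 7 Actb, 7 Serpina3g, 6 Ccnb2, 6 Hmgb2 and 4 Coro1a.

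A signal also appeared in barcodes outside the kept cells: 59.4% of the 32 left-out single-mouse barcodes above the largest kept UMI total scored at or above the last member, against 1.44% of kept cells.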

How the results depend on the processing

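The members' share differed between genotypes by 0.49 percentage points and by −0.00086 to 0.98 with 1 mouse left out, lowest without wild-type mouse 1. It was 0.13 without Car1 in the score, 0.12 after thinning and 0.13 without the members with more UMIs. CD150 stayed higher on members under every alternative run (0.18 to 0.33). CD41 turned to −0.11 with 25 members, −0.014 with members of at least 5 UMIs in the 7 genes, −0.081 as a centred log ratio and −0.0026 against cells of like UMI total, and ran −0.029 to 0.095 with 1 mouse left out. CD48 turned to −0.12 with 100 members and −0.080 against cells of like UMI total. CD135 turned to −0.040 with 100 members, −0.024 without Car1 in the score, −0.0070 without globin-rich members, −0.0032 with at least 5 UMIs, −0.079 without the members with more UMIs, −0.11 as a centred log ratio and −0.0025 against like cells, and ran −0.018 to 0.033 with 1 mouse left out.

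Genes higher in members numbered 98 without the members with more UMIs and 252 at a pseudocount of 1 CPM. Genes lower numbered 1193 and 306 with 25 and 100 members, 1101 after thinning, 1263 at a pseudocount of 1 CPM and 406 at a minimum of 30 CPM. Pf4 and Plek turned to 0.84 and 0.16 with 100 members, and Ccne1 to −0.17 without the members with more UMIs.

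Genes past 0.05 between genotypes numbered 2 and 17 with 25 and 100 members, 9 without Car1 in the score, 19 without globin-rich members, 3 with at least 5 UMIs, 15 without the members with more UMIs, 9 with no filter, 0 without the robust option, 0 with DESeq2 and 0 to 23 with 1 mouse left out. The interaction gave 15 without Car1, 3 with at least 5 UMIs and 2 to 11 with 1 mouse left out. The causes were not tested. Alternatives by UMI total, by at least 5 UMIs and with left-out barcodes were chosen after seeing the data. No paired analysis was possible because the labels pair no Helios-deficient with a wild-type mouse; members and other cells were compared within each mouse. The smallest sum was that of wild-type mouse 1, with 9 members and 92184 UMIs.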
